A study of Mus musculus with 76 samples.

Results

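A set of 9 genes of the retinoic acid pathway was followed in the diencephalon of wild type mouse embryos and of embryos that carry the human version of the enhancer hs754. They were the cytosolic binding proteins Crabp1 and Crabp2, the retinaldehyde dehydrogenases Aldh1a1, Aldh1a2 and Aldh1a3, the degrading enzymes Cyp26a1 and Cyp26b1, and the receptors Rarb and Rxrg, 9 of the 56923 gene IDs in the count tables. The genes were taken from a list of named retinoid genes. Crabp1 was chosen by its measured values, since its RNA counts differed by genotype and by stage in these samples, so its differences, in RNA and at its promoter, are given as a description without a p-value. The other 8 genes were listed by name, but with earlier results of these data known. Their p-values do not account for that choice.

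All embryos had a C57BL/6J background. The humanized embryos were homozygous for the human hs754 sequence, which contains a CpG island and was put in place of the mouse orthologue on chromosome 13 by CRISPR-Cas9 editing and then backcrossed, and the wild type embryos carried the mouse sequence on both copies. RNA was sequenced from E11.5 and E17.5 diencephalon with 4 samples per genotype and stage. ChIP-seq peak lists were used for H3K27ac, H3K4me3 and H3K27me3, with 2 lists of each genotype from E11.5 and 3 from E17.5, and for CTCF with 3 of each genotype from E17.5. Tissue of 6 E11.5 or 3 E17.5 embryos was pooled for each sample, so the spread between samples is one between pools of embryos. The whole diencephalon was taken, and its cell types cannot be told apart in these data.

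Retinoic acid is made from vitamin A. Retinol is oxidized to retinaldehyde, and the Aldh1a enzymes carry out the irreversible step from retinaldehyde to retinoic acid. CRABP proteins bind retinoic acid in the cytosol, CYP26 enzymes oxidize it to forms that are cleared, and in the nucleus it binds RAR proteins, which sit on DNA as pairs with RXR proteins. In the embryo, local synthesis and breakdown set where retinoic acid acts, and in the developing brain the meninges are a known site of synthesis by Aldh1a2.

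The counts on genes ran from 16414369 to 24272569 per RNA sample (median 19300234). The sample labelled E17.5 wild type replicate 1 stood apart from its group: its mean Spearman correlation with the other samples of its group was 0.939, against 0.969 to 0.990 for the other samples. Its reads outside annotated genes were 4.29% of the total, against 8.73% to 12.2% in the other E17.5 samples. The genotype differences at E17.5 that moved most when it was left out are given with and without it. The summed CPM (counts scaled to the library size) of 10 diencephalon markers was 1059 to 1961 at E11.5 and 1534 to 1933 at E17.5, with no marker at 0 in any group. Apart from the meninges, lists for neighbouring or other tissues had lower sums over both stages. They were choroid plexus (137 to 558), midbrain (114 to 199), striatum (82.7 to 240), telencephalon (47.5 to 121), pituitary (25.8 to 87.4), and eye and optic cup (1.49 to 21.9). Hindbrain and spinal cord markers summed to 0 to 1.96, with Hoxa3 and Hoxa4 at 0 in all 4 groups. Meningeal markers summed to 1423 to 1953 at E11.5, which overlapped the diencephalon markers, and to 457 to 987 at E17.5, below them. Neural progenitor markers summed to 4162 to 4814 at E11.5 and 567 to 838 at E17.5, and neuron markers to 1500 to 2397 and 5943 to 7550.

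Promoter sequence is shown for the members on which the results below turn. Crabp1 combined abundant RNA with a promoter that carried H3K27me3, so the 250 bases upstream of its start site are given with each CpG in capitals. The stretch is chr9:54671782-54672031 (GRCm39, plus strand) and holds 12 CpG dinucleotides.
Crabp1: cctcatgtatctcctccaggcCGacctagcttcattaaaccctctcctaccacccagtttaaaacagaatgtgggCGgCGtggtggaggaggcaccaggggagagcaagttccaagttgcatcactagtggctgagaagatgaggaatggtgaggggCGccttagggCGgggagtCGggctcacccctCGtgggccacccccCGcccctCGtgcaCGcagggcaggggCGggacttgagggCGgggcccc
In the wider window of 500 bases on either side of the start, 59.2% of the bases at Crabp1 and 57.2% at Crabp2 were G or C, and the CpG count over that expected from the base content was 0.617 and 0.486. With thresholds of 50% GC and a ratio of 0.6, the promoters of Crabp1, Aldh1a2, Aldh1a3, Cyp26a1 and Cyp26b1 passed, as did 46.1% of 21757 protein-coding promoters. Those of Crabp2, Aldh1a1, Rarb and Rxrg did not, and Aldh1a1 had the lowest ratio of the 9 (0.0468, at 41.6% GC).

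RAR and RXR pairs are known to bind direct repeats of a 6-base hexamer. The usual form of the hexamer is AGGTCA, and 3 close forms of it were allowed as well. They were AGTTCA as the first, GGGTCA as the next, and GGTTCA as the last of them. Repeats of any of these forms spaced by 5 bases (DR5), 2 bases (DR2) or 1 base (DR1) were searched on both strands from 250 bases upstream of each start to 50 bases downstream. A DR5 repeat was present in 12 of 21757 promoters (0.0552%), and Cyp26a1, a gene long known to respond to retinoic acid, was one of them. The 250 bases upstream of its start, chr19:37685991-37686240 (GRCm39, plus strand), end with the repeat, which is in capitals and lies at chr19:37686224-37686240.
Cyp26a1: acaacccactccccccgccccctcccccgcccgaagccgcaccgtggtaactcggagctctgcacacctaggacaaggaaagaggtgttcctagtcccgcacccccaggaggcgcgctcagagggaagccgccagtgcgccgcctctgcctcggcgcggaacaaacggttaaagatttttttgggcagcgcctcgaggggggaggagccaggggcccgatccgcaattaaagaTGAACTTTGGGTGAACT
DR2 repeats were found in 24 promoters (0.110%) and DR1 repeats in 49 (0.225%), with no member among them. The hexamer AGGTCA alone was in 3290 promoters (15.1%), with Aldh1a3 as the only member. The retinoic acid response element of Rarb is a textbook example of a DR5 repeat. Outside the searched window but inside the gene, 299 bases downstream of the start at position 5893936 of chromosome 14, the letters of such a repeat were present at chr14:5894234-5894250 (GRCm39, plus strand), with the hexamers and the bases between them in capitals.
Rarb: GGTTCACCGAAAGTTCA
These letters describe the sequence. Binding of RAR or RXR was not measured in these samples.

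Crabp1 and Crabp2 RNA was abundant at E11.5, and both levels were far lower at E17.5. Levels were compared as TPM, reads scaled for library size and for the length of all annotated exons of a gene. This length was 1305 bp for Crabp1, 1322 bp for Crabp2, 8366 bp for Rarb and 10740 bp for Aldh1a1. It can exceed that of the transcript in use, so the order of genes at either stage depends on it. The wild type E11.5 mean was 445 ± 44.1 TPM for Crabp2 and 333 ± 114 for Crabp1 (SD, n = 4). In humanized E11.5 samples the means were 504 ± 54.9 and 544 ± 163 TPM. The ranges of both genes overlapped in each genotype, so their order was not resolved. In the counts without strand, every other member had a mean below 2 TPM at E11.5 and lay below both without overlap. Rarb is the exception by strand, at 6.53 ± 0.378 TPM in wild type and 5.69 ± 0.910 TPM in humanized samples, still below both. Without strand, neighbouring genes among them in the order overlapped, except that Rarb (1.37 ± 0.236 TPM) was above Cyp26b1 (0.960 ± 0.172 TPM) in the humanized samples.

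At E17.5 the order had changed. Crabp2 was still the highest member, at 61.3 ± 13.04 TPM in wild type and 52.6 ± 4.62 TPM in humanized samples, followed without overlap by Aldh1a2 at 16.8 ± 2.62 and 12.6 ± 2.87 TPM. In wild type samples Crabp1 (9.96 ± 2.56 TPM), Aldh1a1 (8.35 ± 2.47 TPM), Rxrg (5.88 ± 1.09 TPM) and Cyp26b1 (4.94 ± 2.23 TPM) came next, each overlapping the next. In humanized samples Aldh1a2 overlapped Aldh1a1 (8.91 ± 2.63 TPM). The mean of Crabp1 (4.71 ± 1.48 TPM) was below those of Aldh1a1 and Rxrg (4.95 ± 0.591 TPM), and its range overlapped those of both genes. Without strand, Rarb, Aldh1a3 and Cyp26a1 were the lowest 3 members in both genotypes. By strand, Rarb was at 4.17 ± 1.23 TPM in wild type and 4.40 ± 0.741 TPM in humanized samples, where its mean was above that of Cyp26b1 (3.52 ± 0.719 TPM) with overlapping ranges.

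**Figure D1:**
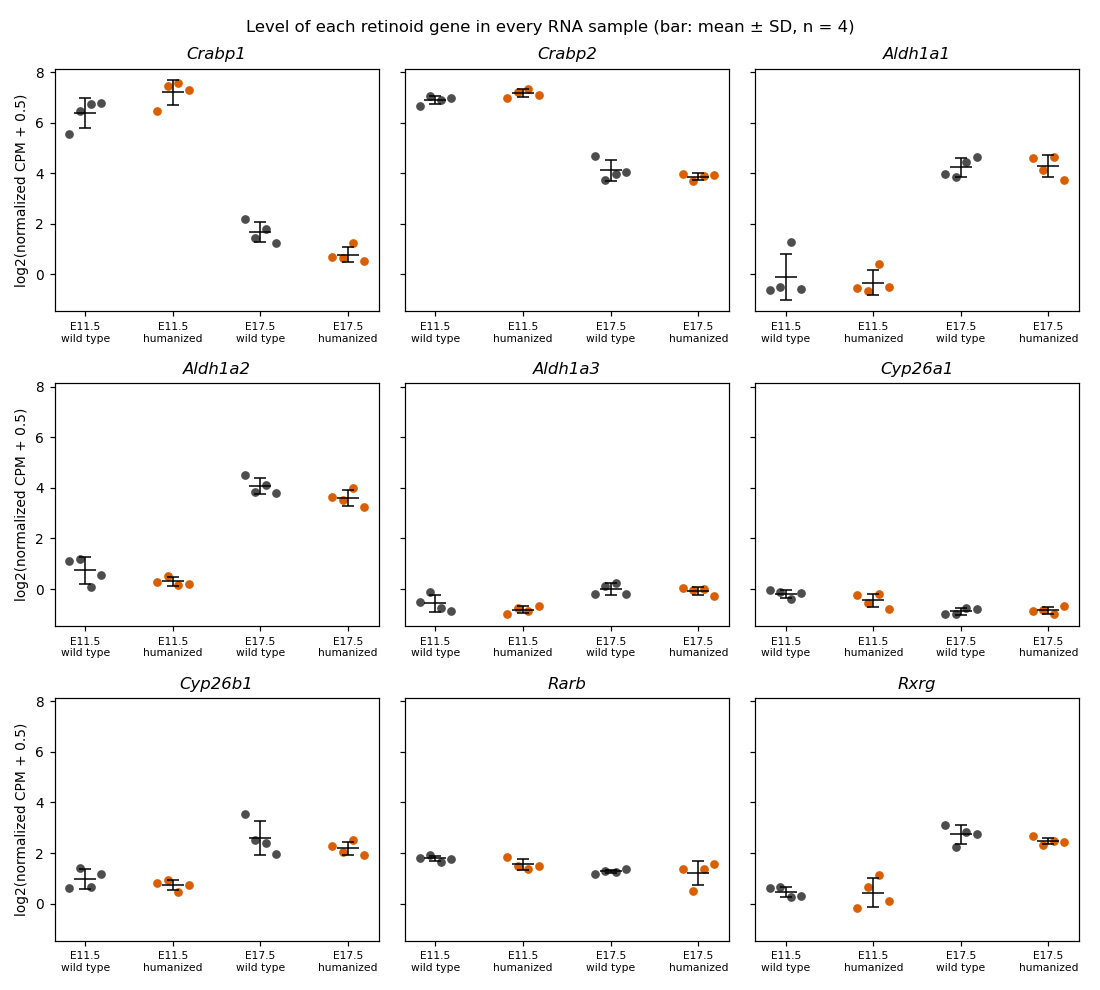
Level of each of the 9 genes in every RNA sample, as log2 of normalized CPM plus a small constant (vertical axis), for the 4 groups (horizontal axis). Points are samples and bars give the mean ± SD (n = 4). Crabp1 and Crabp2 are lower at E17.5 than at E11.5 in every sample, Aldh1a1, Aldh1a2, Cyp26b1 and Rxrg are higher in every sample, and the humanized samples of Crabp1 lie below the wild type samples at E17.5.

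Crabp1 (ENSMUSG00000032291, chr9:54671171-54680403, GRCm39, plus strand) encodes a binding protein of retinoic acid that is expressed by subsets of early neurons in the embryo. In wild type E11.5 samples it had 46.0, 88.7, 106 and 110 normalized CPM (replicates 1 to 4), and in humanized E11.5 samples 86.5, 174, 189 and 158. Humanized values were higher in 3 of 4 samples than every wild type value, and the fourth, replicate 1, lay within the wild type range. Replicate 1 was the lowest sample in both genotypes. The log2 fold change of humanized against wild type was 0.77 (SE 0.29), a ratio of group means of 1.73.

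At E17.5 the difference had the opposite sign. Wild type samples had 4.02, 2.23, 2.98 and 1.89 normalized CPM of Crabp1 (77, 41, 60 and 45 counts), and humanized samples had 1.12, 1.09, 1.85 and 0.954 (21, 18, 33 and 15 counts). All 4 humanized values lay below all 4 wild type values, although the gap was narrow, between 1.89 and 1.85. Over all 20234 genes with enough reads, the genotypes did not overlap, with humanized samples lower, for 0.761% at E17.5 (0.519% were higher). With E11.5 samples, 1.51% were higher and 0.993% lower. The log2 fold change at E17.5 was -1.15 (SE 0.34), a ratio of means of 0.451. Without the wild type replicate 1, whose Crabp1 was the highest of the group, it was -0.91. The 10 meningeal markers, which include collagens and Ptgds, summed to 987 CPM in that sample, 601 to 672 in the other wild type samples and 457 to 634 in the humanized samples. Their part in the result was not tested. In bulk tissue, fewer cells that express a gene and less RNA per cell cannot be told apart, here or in any result below.

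Between the stages, Crabp1 was lower at E17.5 in each sample of both genotypes. The log2 fold change was -5.00 (SE 0.37) in wild type and -6.92 (SE 0.30) in humanized samples, and their difference, the genotype by stage interaction, was -1.92 (SE 0.46). The genotype comparisons and the stage comparisons use the same 16 samples.

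Crabp2 (ENSMUSG00000004885, chr3:87855973-87860683, plus strand), the other cytosolic binding protein, had 101, 132, 118 and 125 normalized CPM in wild type and 124, 148, 161 and 137 in humanized E11.5 samples. As for Crabp1, 3 of 4 humanized samples were above every wild type sample. The log2 fold change of 0.23 (SE 0.11) did not pass the test across all genes (edgeR quasi-likelihood, Benjamini-Hochberg adjusted p = 0.577). At E17.5 the values were 25.4, 12.9, 15.3 and 15.8 in wild type and 15.1, 12.4, 14.4 and 14.8 in humanized samples. The groups overlapped, and the log2 fold change was -0.30 (SE 0.23; adjusted p = 0.808) with the wild type replicate 1 and -0.06 without it.

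Crabp2 fell between the stages in both genotypes. The log2 fold change was -2.79 in wild type (SE 0.24; adjusted p = 5.12e-06) and -3.34 in humanized samples (SE 0.13; adjusted p = 8.82e-10), with an interaction of -0.55 (SE 0.25; adjusted p = 0.462). Every E17.5 sample lay below every E11.5 sample. Crabp2 thus had the same sign as Crabp1 in each comparison, with smaller values. The background of calls was high between stages: 55.7% of 18583 genes tested passed in wild type (29% higher and 26.7% lower at E17.5) and 77.7% of 18781 in humanized samples (38.2% higher and 39.5% lower). Without the wild type E17.5 replicate 1, 6968 genes were higher and 7026 lower of 19351 tested in wild type, so the share called in wild type rested in part on that sample. All 7 neural progenitor markers fell and 6 of 7 neuron markers rose in both genotypes, with none at 0, and their part in the stage results was not tested.

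The synthesizing enzymes were low at E11.5, and Aldh1a1 and Aldh1a2 rose by E17.5. Aldh1a2 (ENSMUSG00000013584, chr9:71122630-71203527, plus strand), the main synthesizing enzyme of the early embryo, had 1.64, 1.80, 0.556 and 0.972 normalized CPM in wild type and 0.729, 0.941, 0.620 and 0.655 in humanized E11.5 samples. At E17.5 it had 22.2, 13.9, 16.7 and 13.3 in wild type and 12.0, 11.02, 15.4 and 8.84 in humanized samples. Stages did not overlap in either genotype. The log2 fold change was 3.73 (SE 0.35; adjusted p = 9.08e-06) in wild type and 3.98 (SE 0.23; adjusted p = 1.79e-08) in humanized samples. Of the 10 meningeal markers, 3 rose and 6 fell in wild type, and 3 rose and 7 fell in humanized samples, with list medians of -1.20 and -1.63 on the log2 scale and no marker at 0. Among the wild type E17.5 samples, replicate 1 was the highest both for Aldh1a2 and for the meningeal list. The part of these cells in the result was not tested. Between genotypes, the log2 fold change of Aldh1a2 was -0.76 at E11.5 (SE 0.36; adjusted p = 0.577) and -0.49 at E17.5 (SE 0.24; adjusted p = 0.808), or -0.31 without the wild type replicate 1, and the genotypes overlapped at both stages.

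Aldh1a1 (ENSMUSG00000053279, chr19:20469539-20622825, plus strand) had 0.154, 0.212, 1.92 and 0.162 normalized CPM in wild type and 0.194, 0.134, 0.827 and 0.205 in humanized E11.5 samples. Replicate 3 was by far the highest sample in each genotype. At E17.5 it had 15.1, 14.1, 21.2 and 24.5 in wild type and 23.9, 16.8, 24.3 and 12.8 in humanized samples. All E17.5 samples were above all E11.5 samples, and the log2 fold change was 4.92 (SE 0.69; adjusted p = 0.000158) in wild type and 5.86 (SE 0.41; adjusted p = 7.90e-08) in humanized samples. It did not differ detectably between genotypes at E17.5 (0.05, SE 0.26; adjusted p = 0.944) and had too few reads to be tested between genotypes at E11.5.

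Aldh1a3 (ENSMUSG00000015134, chr7:66040638-66077850, minus strand) was near the limit of detection. It had 4, 8, 2 and 1 counts in wild type and 0, 2, 1 and 3 in humanized E11.5 samples, then 7, 11, 14 and 9 in wild type and 10, 8, 9 and 5 in humanized E17.5 samples. It passed the filter on low counts in no comparison. The humanized samples did not overlap between stages, and the wild type samples did.

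Of the degrading enzymes, Cyp26b1 rose between stages and Cyp26a1 had too few reads to be tested. Cyp26b1 (ENSMUSG00000063415, chr6:84548396-84570890, minus strand) had 1.02, 2.17, 1.06 and 1.78 normalized CPM in wild type and 1.26, 1.39, 0.878 and 1.15 in humanized E11.5 samples. At E17.5 it had 11.1, 5.21, 4.72 and 3.41 in wild type and 4.31, 3.57, 5.22 and 3.31 in humanized samples. It rose between stages without overlap, by 2.00 on the log2 scale in wild type (SE 0.41; adjusted p = 0.00182) and by 1.79 in humanized samples (SE 0.23; adjusted p = 1.78e-05). The wild type replicate 1 was the highest E17.5 sample. The genotype difference at E17.5 was -0.58 (SE 0.36; adjusted p = 0.808) with that sample and -0.11 without it. At E11.5 the difference was -0.39 (SE 0.29; adjusted p = 0.584).

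Cyp26a1 (ENSMUSG00000024987, chr19:37686241-37689984, plus strand), with the DR5 repeat shown above, had 9, 8, 5 and 10 counts in wild type and 7, 4, 7 and 2 in humanized E11.5 samples. At E17.5 it had 0, 0, 2 and 2 counts in wild type and 1, 1, 0 and 2 in humanized samples. It did not pass the filter in any comparison. Wild type samples did not overlap between stages, and humanized samples touched at 2 counts. Cyp26a1 lies on chromosome 19. Of the tested protein-coding genes within 500 kb of it, Ide had the largest genotype difference at each stage. In humanized against wild type samples, Ide differed by 0.41 at E11.5 (SE 0.19; adjusted p = 0.577) and 1.11 at E17.5 (SE 0.23; adjusted p = 0.808). The other 8 tested protein-coding neighbours (Marchf5, Kif11, Hhex, Exoc6, Myof, Cep55, Rbp4 and Fra10ac1) lay between -0.34 and 0.36, and Cyp26c1, Ffar4 and Pde6c had too few reads. On this chromosome the paper reports differential ChIP-seq peaks inside known copy-number variants of the mouse strain. It proposes that wild type and humanized samples differed in copy number there in some comparisons. Whether such variants reach Ide or Cyp26a1 was not tested.

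Rxrg (ENSMUSG00000015843, chr1:167425673-167467193, plus strand), a retinoid X receptor with restricted expression in the brain, had 1.02, 1.06, 0.707 and 0.729 normalized CPM in wild type and 0.389, 1.08, 1.71 and 0.573 in humanized E11.5 samples. At E17.5 it had 8.15, 4.23, 6.66 and 6.19 in wild type and 5.81, 4.54, 5.05 and 4.90 in humanized samples. It rose in every sample, by 2.83 on the log2 scale in wild type (SE 0.28; adjusted p = 1.44e-05) and 2.44 in humanized samples (SE 0.34; adjusted p = 3.63e-05). Between genotypes it differed by 0.06 at E11.5 (SE 0.42; adjusted p = 0.955) and -0.32 at E17.5 (SE 0.24; adjusted p = 0.808), or -0.17 without the wild type replicate 1.

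**Figure D2:**
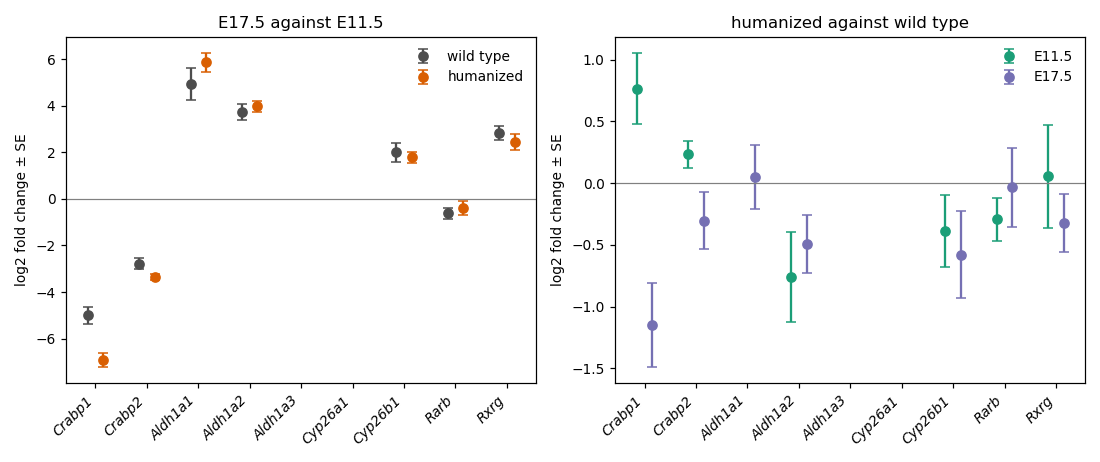
Log2 fold change ± SE of each tested member (vertical axes), for E17.5 against E11.5 in each genotype (left) and humanized against wild type at each stage (right, with a narrower scale). Between stages Aldh1a1, Aldh1a2, Cyp26b1 and Rxrg lie above 0 and Crabp1 and Crabp2 below 0 in both genotypes. Between genotypes, Crabp1 lies at 0.77 at E11.5 and -1.15 at E17.5.

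Rarb (ENSMUSG00000017491, chr14:5650540-6041094, plus strand), a retinoic acid receptor, is described apart from the rest because its reads depended on the count column. The deposited tables count reads both without strand and by strand. The gene overlaps Top2b, a protein-coding gene on the opposite strand, by 6794 bp, and 2 long non-coding RNAs, Gm62866 and Gm48162, also lie opposite to it. Summed over the 16 samples, Rarb had 743 counts without strand and 2941 in the strand column, a ratio of 3.96. Of 20502 genes with at least 100 counts, 92 (0.449%) had a ratio of at least 3, and the median ratio was 0.996. For the other 8 members the ratio of both columns was 0.915 to 0.997 for 7 and exactly 1 for Cyp26a1.

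Without strand, Rarb had 3.02, 3.29, 2.63 and 2.88 normalized CPM in wild type and 3.06, 2.33, 2.07 and 2.33 in humanized E11.5 samples. At E17.5 it had 1.78, 1.95, 1.89 and 2.06 in wild type and 2.08, 0.909, 2.08 and 2.48 in humanized samples. In the strand column the counts were 210, 225, 205 and 292 in wild type and 199, 189, 231 and 273 in humanized E11.5 samples, then 92, 143, 154 and 208 in wild type and 149, 100, 162 and 109 in humanized E17.5 samples. Its mean level in wild type samples at E11.5 was 1.74 TPM without strand and 6.53 TPM by strand. The comparison between stages also depended on the column. Without strand the log2 fold change was -0.63 in wild type (SE 0.22; adjusted p = 0.0296) and -0.39 in humanized samples (SE 0.28; adjusted p = 0.226). The wild type call was lost when any sample other than E11.5 replicate 3 or E17.5 replicate 1 was left out. By strand it was -0.62 (adjusted p = 0.0314) and -0.43 (adjusted p = 0.0343). The genotype differences were -0.29 at E11.5 (SE 0.17; adjusted p = 0.577) and -0.03 at E17.5 (SE 0.32; adjusted p = 0.969) without strand.

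**Figure D3:**
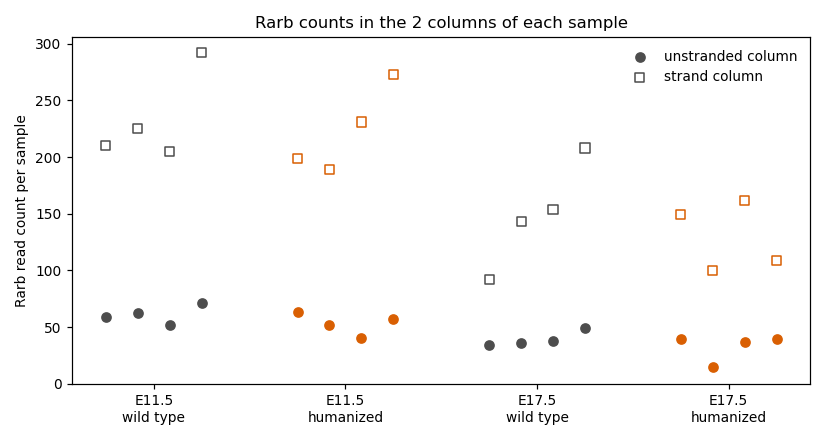
Rarb read counts (vertical axis) in the 16 RNA samples by group (horizontal axis). Filled circles are the column that ignores strand and open squares the strand column. In every sample the strand column holds more reads, with totals of 2941 and 743 counts over all samples.

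Between genotypes, edgeR called 0% of 17816 genes at E11.5 and 0% of 18763 genes at E17.5, so no member could stand out by a call. At an unadjusted p under 0.05 there were 1058 and 207 genes, and DESeq2 called 2 and 1. Of the 9 members, 6 passed the filter at E11.5 and 7 at E17.5, Crabp1 included. Their median log2 fold changes were -0.12 and -0.32, against 0.00 and -0.03 over all genes tested. Since Crabp1 was chosen on these contrasts, the medians are a description and no test of the set. Without wild type replicate 1, the E17.5 differences of Crabp1, Crabp2, Aldh1a2, Cyp26b1 and Rxrg were smaller, as given above. The interaction was called for 0% of 20234 genes (1610 at an unadjusted p under 0.05). For the members other than Crabp1 it ran from -0.55 (Crabp2) to 0.92 (Aldh1a1, SE 0.88; adjusted p = 0.564). Between stages, where 55.7% of genes were called in wild type and 77.7% in humanized samples, 4 members rose in each genotype (Aldh1a1, Aldh1a2, Cyp26b1 and Rxrg) and Crabp2 fell in each. Rarb fell in wild type, a call lost in 6 of 8 fits with a sample left out, and in humanized samples it was called in the strand column only. Crabp1, given without a test, was at -5.00 and -6.92.

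The other genes of the pathway were counted by list in the stage comparisons. Among 11 enzymes that interconvert retinol and retinaldehyde, 8 were tested, of which 4 rose and 2 fell in wild type and 4 rose and 3 fell in humanized samples. Their median log2 fold change was 0.41 and 0.39, beside -0.01 and -0.04 over all genes. Adh7, a retinol dehydrogenase, rose by 3.73 in wild type (SE 0.35; adjusted p = 9.71e-06) and 5.16 in humanized samples (SE 0.53; adjusted p = 2.29e-06), from means of 0.170 and 0.0704 CPM to 2.35 and 2.73. Dhrs3, which reduces retinaldehyde back to retinol, rose by 1.46 (adjusted p = 0.000858) and 0.84 (adjusted p = 0.00592). Dhrs4 changed by -1.47 (adjusted p = 0.000563) and -2.02 (adjusted p = 1.29e-07). Of 5 genes for retinol uptake and storage, none of 4 tested was called in wild type and 2 of 3 fell in humanized samples, with medians of 0.16 and -0.69.

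Among the other receptors, every call between stages was a lower level at E17.5. All 4 (Rara, Rarg, Rxra and Rxrb) were tested, and 2 fell in wild type and 4 in humanized samples, with medians of -0.73 and -1.51. Rxra, the main partner of RAR proteins in many tissues, changed by -2.29 in wild type (SE 0.39; adjusted p = 0.000606) and -2.98 in humanized samples (SE 0.14; adjusted p = 5.04e-09), and Rarg by -0.95 (adjusted p = 0.0386) and -1.78 (adjusted p = 9.86e-06). Rxrg thus moved in the opposite direction to Rxra in both genotypes. Among 6 corepressors and coactivators, 1 rose in wild type, and 4 rose and 1 fell in humanized samples (medians 0.33 and 0.87), with Ncoa1 at 1.39 (adjusted p = 0.000172) and 1.81 (adjusted p = 5.46e-07).

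Of 10 genes known to respond to retinoic acid, 2 of 7 tested rose and 4 fell in wild type, and 2 of 6 rose and 3 fell in humanized samples, with medians of -0.73 and -0.45. Meis1, a homeobox gene, changed by -1.99 (SE 0.18; adjusted p = 8.52e-06) and -2.01 (SE 0.15; adjusted p = 1.10e-07). Its paralogue Meis2 changed by 1.30 (adjusted p = 0.0133) and 1.47 (adjusted p = 0.000301), and Tgm2, a transglutaminase, by -1.10 (adjusted p = 0.0107) and -1.74 (adjusted p = 4.42e-06). The list thus held genes moving in both directions. Of the 2 genes for other delivery and breakdown, Fabp5 was not called in either genotype (0.51 and 0.07) and Cyp26c1 had too few reads. No gene of these lists was called between genotypes or for the interaction.

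Genes whose levels followed Crabp1 were ranked over the 16 samples by the correlation of log2 CPM after the mean of each stage was removed. The highest 5 of 14826 genes were Eya2 (r = 0.868), Arrdc1 (0.852), Vtn (0.849), Ripor3 (0.822) and Fignl2 (0.821). Within E11.5 their r was 0.671 to 0.929 and within E17.5 0.843 to 0.947, each over 8 samples. Crabp2 stood at rank 44 with r = 0.740. The other members ranked were far lower, from rank 3938 to rank 9779. They were Cyp26b1 (r = 0.414), Rxrg (0.361), Aldh1a1 (0.156), Aldh1a2 (0.029) and Rarb (-0.216). The samples share their genotype groups and libraries, so these values describe likeness only, and the highest 5 were picked for high values.

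At the promoters, marks of active and of silenced genes were compared with the RNA. H3K4me3 marks start sites, H3K27ac marks active promoters and enhancers, and H3K27me3 is laid down by Polycomb complexes at genes that are silenced. A peak within 1000 bp of an annotated start site was counted. The lists differed in size between stages. H3K27ac lists held 32418 to 37311 peaks at E11.5 and 47132 to 77419 at E17.5. H3K27me3 lists held 13850 to 21295 and 19193 to 43700. H3K4me3 peaks were present in all 10 lists at 8 of 9 members, all but Aldh1a1. Over 20767 promoters, 65.2% had such a peak in every list of the wild type E11.5 and humanized E17.5 groups and 65.4% in the other 2 groups. H3K27me3 was present in every list at 7 members in wild type E11.5 samples and at 8 in each other group, against 21.4% of promoters in wild type and 23.7% in humanized E11.5 lists and 21.6% and 20.1% in E17.5 lists. H3K27ac was present in every list at 2 members in each group, against 49.4% and 50.5% in E11.5 and 59.1% and 56.2% in E17.5 lists of wild type and humanized samples. H3K4me3 and H3K27me3 were both present in every list of both genotypes at 7 members at E11.5 (all but Aldh1a1 and Rarb) and at 8 members at E17.5 (all but Aldh1a1), against 19.2% and 17.3% of all promoters. In bulk lists this does not show that both marks lie in the same cells. H3K4me3 and H3K27ac were both present in every list at Crabp2 and Rarb at E11.5, where 48% of promoters had both, and at Rarb and Rxrg at E17.5 (55.2%).

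**Figure D4:**
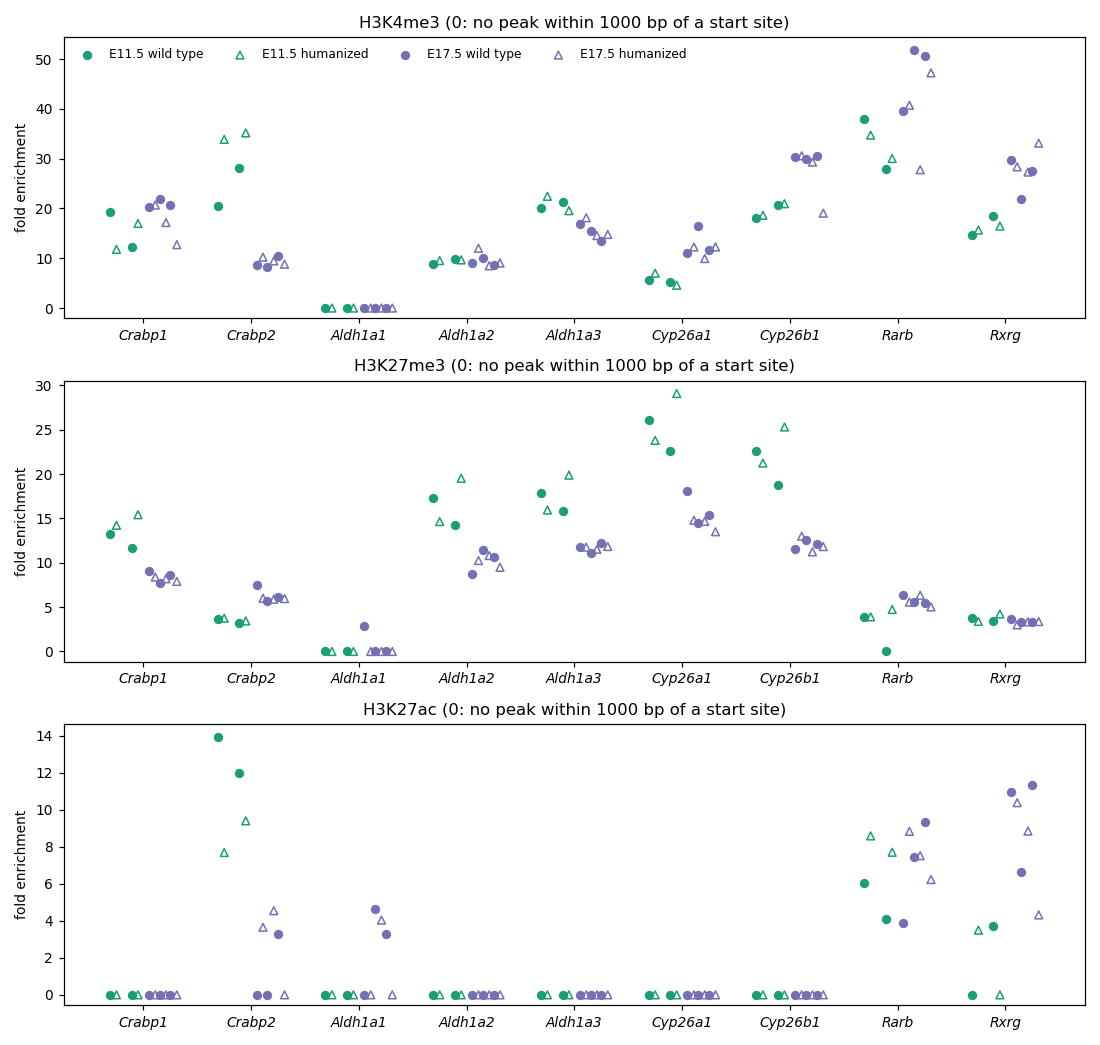
Fold enrichment of the highest promoter peak (vertical axes) at each of the 9 genes (horizontal axes) in every list of H3K4me3, H3K27me3 and H3K27ac. Circles are wild type and triangles humanized lists, green is E11.5 and purple E17.5, and 0 stands for no peak. At Crabp2, H3K4me3 and H3K27ac are lower and H3K27me3 is higher at E17.5, and Crabp1 has no H3K27ac peak in any of the 10 lists.

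Crabp1 had abundant RNA at E11.5, yet its promoter carried H3K27me3 and no H3K27ac peak in any list. The H3K27me3 fold enrichment was 11.7 to 15.4 at E11.5 and 7.74 to 9.08 at E17.5. H3K4me3 was 19.2 and 12.2 in wild type and 11.8 and 16.99 in humanized E11.5 lists, then 20.3, 21.9 and 20.6 in wild type and 20.7, 17.2 and 12.7 in humanized E17.5 lists. Of 1568 genes with a mean of at least 100 TPM at E11.5, 16 (1.02%) had no promoter H3K27ac peak in any E11.5 list and 161 (10.3%) had H3K27me3 in all of them. Only 3 (0.191%) had both features, namely Crabp1 and the collagen genes Col1a1 and Col1a2, which are on the meningeal marker list. At E17.5, 0 of 1514 genes at this level had both. In the Crabp1 gene or within 50 kb of it, 2 to 3 other H3K27ac peaks were called at E11.5 and 2 to 4 at E17.5.

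The Crabp2 promoter changed with its RNA. H3K27ac was 13.9 and 12.0 in wild type and 7.68 and 9.40 in humanized E11.5 lists. At E17.5 it was present in 3 of 6 lists, at 3.27 in 1 wild type list and at 3.65 and 4.54 in 2 humanized lists. H3K4me3 was 20.5 and 28.1 in wild type and 33.9 and 35.2 in humanized E11.5 lists, then 8.71, 8.21 and 10.6 in wild type and 10.2, 9.46 and 8.81 in humanized E17.5 lists. Stages did not overlap for either mark. H3K27me3 moved the other way, from 3.15 to 3.75 at E11.5 to 5.66 to 7.51 at E17.5. On the log2 scale, after each list was centred on its median promoter, the stage difference was -1.83 for H3K4me3 (SE 0.14; limma adjusted p = 3.73e-06) and 1.11 for H3K27me3 (SE 0.08; limma adjusted p = 2.53e-08). Among all promoters tested, H3K4me3 was called higher at E17.5 for 10.2% and lower for 4.82% of 13311, and H3K27me3 higher for 35.1% and lower for 43.4% of 3431.

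The same centred difference at Crabp1 was 0.14 (SE 0.17) for H3K4me3 and -0.42 (SE 0.06) for H3K27me3. The length covered by promoter peaks also differed between stages. At Crabp2 the H3K4me3 peaks covered 5670 to 5869 bp at E11.5 and 1607 to 2987 bp at E17.5, and the H3K27ac peaks 5885 to 6285 bp and at most 1287 bp. H3K27me3 peaks at Crabp2 covered 5308 to 7524 bp and 7391 to 8107 bp. At Crabp1 H3K27me3 covered 5164 to 5671 bp at E11.5 and 9012 to 10674 bp at E17.5, while H3K4me3 stayed between 1563 and 2030 bp. The H3K27me3 peaks of Crabp1 thus covered more bases at the later stage, and their fold enrichment was lower. Both values describe the same broad peaks, here and at the members below. How far fold enrichment depends on length was not tested for any of them.

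**Figure D5:**
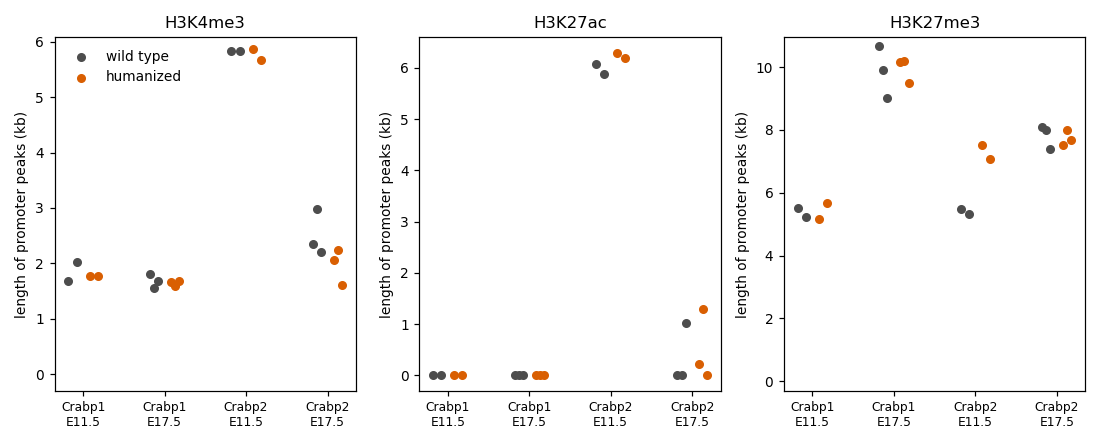
Length covered by promoter peaks in kb (vertical axes) at Crabp1 and Crabp2 at each stage (horizontal axes) for the 3 histone marks. Points are lists, coloured by genotype. H3K4me3 and H3K27ac peaks at Crabp2 are shorter at E17.5, and H3K27me3 peaks at Crabp1 are longer, from 5164 to 5671 bp at E11.5 to 9012 to 10674 bp at E17.5.

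Cyp26a1 carried the highest H3K27me3 of the 9 genes at E17.5, and Cyp26b1 overlapped Aldh1a3 there. Cyp26a1 had 22.6 to 29.1 at E11.5 and 13.5 to 18.03 at E17.5, and Cyp26b1 had 18.8 to 25.3 and 11.2 to 12.99. The centred stage difference was -0.45 for Cyp26a1 (SE 0.05; limma adjusted p = 2.32e-06) and -0.57 for Cyp26b1 (SE 0.08; limma adjusted p = 1.76e-05). The H3K27me3 peaks of Cyp26b1 covered 11342 to 13929 bp at E11.5 and 11780 to 22529 bp at E17.5. At Cyp26a1 the H3K27me3 peaks covered 23302 to 25860 bp at E11.5 and 25402 to 31138 bp at E17.5, a domain that also spans the gene itself. Its H3K4me3 rose from 5.59 and 5.31 in wild type and 6.99 and 4.59 in humanized E11.5 lists to 11.1, 16.4 and 11.8 in wild type and 12.3, 9.95 and 12.3 in humanized E17.5 lists, by 0.93 after centring (SE 0.16; limma adjusted p = 0.00152), while its counts were lower at E17.5. H3K4me3 at Cyp26b1 was 18.001 to 20.97 and 19.1 to 30.6 (0.32, SE 0.14; limma adjusted p = 0.172). Neither gene had a promoter H3K27ac peak, or another H3K27ac peak within 50 kb, in any list.

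The synthesizing enzymes differed from each other in promoter state. Aldh1a2 had H3K27me3 of 14.2 to 19.5 at E11.5 and 8.76 to 11.4 at E17.5 (-0.39 after centring, SE 0.10; limma adjusted p = 0.00354) and H3K4me3 of 8.95 to 9.92 and 8.50 to 12.0 (-0.20, SE 0.12; limma adjusted p = 0.320). The length of its H3K27me3 peaks went from 7561 to 8599 bp to 11706 to 26013 bp. So H3K27me3 was present in every list at a gene whose RNA rose. Aldh1a3 had H3K27me3 of 15.8 to 19.9 and 11.1 to 12.2 (-0.27, SE 0.06; limma adjusted p = 0.00154) and H3K4me3 of 19.6 to 22.5 and 13.5 to 18.1 (-0.63, SE 0.12; limma adjusted p = 0.00381). Neither had H3K27ac at its promoter in any list. Aldh1a1 had no H3K4me3 peak in any list and an H3K27me3 peak in 1 of 10. It had an H3K27ac peak in 0 of 4 E11.5 lists and 3 of 6 E17.5 lists (3.30 to 4.63). This peak lay at an annotated start site inside the gene, at position 20513628 of chromosome 19, and not at the first start sites. Nor did it lie at the start used for CpG content above, at position 20577175, which has few CpG dinucleotides around it.

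The receptors were the members with a promoter H3K27ac peak in every E17.5 list. Rxrg had H3K27ac in 2 of 4 E11.5 lists (3.49 and 3.71, 1 per genotype) and in 6 of 6 E17.5 lists (4.32 to 11.3), and H3K4me3 of 14.6 to 18.4 and 21.96 to 33.1 (0.58 after centring, SE 0.15; limma adjusted p = 0.0198). Its H3K27me3 stayed low, at 3.39 to 4.22 and 3.00 to 3.62. The centred difference was 0.15 (SE 0.06; limma adjusted p = 0.0432), turned to -0.14 without centring, and its call was lost in 8 of 10 fits without 1 list. The H3K4me3 call was lost when either humanized E11.5 list or the wild type E11.5 replicate 1 list was left out. In the Rxrg gene or within 50 kb of it, 1 to 3 other H3K27ac peaks were called at E11.5 and 5 to 6 at E17.5. Rarb had H3K27ac in all 10 lists (3.85 to 9.34), at the same start site as the DR5 letters shown above, and H3K4me3 of 27.9 to 38.0 and 27.8 to 51.8 (0.18, SE 0.18; limma adjusted p = 0.556). Its H3K27me3 was 3.88 to 4.73 in 3 of 4 E11.5 lists and 5.02 to 6.37 in all E17.5 lists. Other H3K27ac peaks in the Rarb gene or within 50 kb of it numbered 1 to 2 at E11.5 and 4 to 13 at E17.5. The region counted in this way is wider for a longer gene. The E17.5 H3K27ac lists were also the larger ones, and the part of list size in these counts was not tested.

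Presence of promoter peaks by stage was also tested across all promoters (two-sided Fisher's exact test, 6 lists against 4, smallest p 0.00476). After adjustment 0% of 20767 promoters were called for any histone mark. This could not have been otherwise, since too few promoters differed in every list for the smallest p to pass adjustment. The test therefore does not decide whether presence changed at any promoter. H3K27ac was present in every E17.5 list and no E11.5 list at 4.39% of promoters and the reverse at 0.419%, and no member was among either. For H3K4me3 these shares were 0.467% and 0.327% and for H3K27me3 1.31% and 1.37%, again without a member. Between genotypes, fold enrichment was called at 0% of promoters for H3K4me3 at both stages, and for H3K27me3 at 0.0583% higher and 0.0291% lower at E11.5 and 0% at E17.5, with no member among them. For Crabp2 H3K4me3 at E11.5, where both humanized lists lay above both wild type lists, the difference was 0.58 (SE 0.22; limma adjusted p = 0.9999, unadjusted p = 0.0197). For Crabp1 the genotype difference was -0.06 (SE 0.27) at E11.5 and -0.29 (SE 0.22) at E17.5 for H3K4me3, and 0.06 (SE 0.09) and 0.05 (SE 0.08) for H3K27me3.

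CTCF, the insulator protein that anchors chromatin loops, had a promoter peak in all 6 E17.5 lists at Aldh1a2 (fold enrichment 6.49 to 17.4) and Crabp2 (2.88 to 7.73). Over all promoters, 34.3% had a peak in every humanized list and 38.5% in every wild type list. Rxrg had a peak in 1 humanized and 3 wild type lists, Rarb in 0 and 2, Cyp26b1 in 1 and 1, and Crabp1 in 1 and 0. Aldh1a1, Aldh1a3 and Cyp26a1 had none. With 3 lists against 3, the smallest two-sided p of Fisher's exact test is 0.1, so these differences between genotypes could not pass a test.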

How the data were processed

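RNA was sequenced from polyA-selected libraries of 16 samples, and 36 ChIP-seq peak lists were used. The 24 input samples were not used. The authors aligned reads to mm39 (STAR 2.7.9a for RNA and Bowtie2 2.4.2 for ChIP, per the processing notes) and deposited the raw count of reads per gene, without strand and by strand. The column without strand was used, and lines naming no gene (48.1% to 58.4% of reads) were left out. The authors called peaks per replicate with MACS2 2.2.7.1. The deposited lists give each peak's fold enrichment over background as a ratio, p-values and q-values as -log10, and a score. Lists for H3K27me3 are in broad-peak format. Depth is unknown for peak lists, so no counting interval is given, and the labels conflict on the H3K27ac antibody number. The paper reports that its lot of this antibody also bound H2BK5ac, another histone acetylation mark. Peaks named H3K27ac here can therefore include that mark.

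Gene names, positions and exon lengths came from GENCODE M39 (GRCm39), to which 56236 of 56923 IDs matched (98.8%). Counts were filtered with filterByExpr, TMM-normalized and analysed in R 4.3.3 by the quasi-likelihood method of edgeR 4.0.16 with limma 3.58.1, each comparison on its own 8 samples and the interaction on 16, adjusted by Benjamini-Hochberg over all genes with a threshold of 0.05. Promoter peaks lay within 1000 bp of an annotated start, and chromosome 13 was left out of counts over all promoters. Log2 fold enrichment was compared with limma where a promoter had a peak in all 10 lists, a test added once the data had been seen. The RNA tests, the stage test of promoter peaks and the stage comparison of fold enrichment were run on simulated data. The genotype comparisons of fold enrichment were not. Python 3.11.15, numpy 2.4.6, pandas 2.3.3, scipy 1.17.1 and matplotlib 3.10.9 were used. Alternatives for RNA were DESeq2 1.42.0, its size factors, no filter, strand-specific counts, 1 fit over all 16 samples, and blocking on replicate number. For promoter peaks they were a wider window, a stricter q-value, the outermost start site alone, and the same number of peaks per list. Each sample or list was also left out.

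Promoter sequences other than those printed are not reported here. The members and all gene lists were chosen with earlier results of these data known. All members are named. Genes of the other pathway lists are named where called in both stage comparisons with the 3 largest changes of a list, or where called by genotype, and the 5 genes most like Crabp1 and the neighbours of Cyp26a1 within 500 kb are named.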

Additional observations from a re-analysis of the deposited data

Results flagged for a closer look

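Each of the 36 levels (9 genes in 4 groups of 4 RNA samples) was screened for a sample far from the other 3, by the gap to its nearest neighbour over the range of the group, against Dixon's critical value at the 95% level. Chance passes about 1 in 20 groups. Both levels that passed were Aldh1a1 at E11.5, and both came from replicate 3. The wild type replicate 3 had 1.92 normalized CPM (38 counts), against 0.154 to 0.212 in the other wild type samples, with a gap over range of 0.967. The humanized replicate 3 had 0.827 normalized CPM (16 counts), against 0.134 to 0.205, with a gap over range of 0.898. When the respective sample was left out, the stage difference of Aldh1a1 was 6.67 in wild type and 6.68 in humanized samples on the log2 scale. The genotype by stage interaction passed for no member.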

How the results depend on the processing

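Stage differences of Crabp2, Aldh1a1, Aldh1a2, Cyp26b1 and Rxrg kept their sign and stayed called in both genotypes under every alternative run. Of the Crabp1 values, leaving out each sample gave 0.55 to 0.96 for the genotype difference at E11.5, -1.37 to -0.91 at E17.5, and -2.18 to -1.69 for the interaction. The stage call of Rarb in wild type was lost with DESeq2 (-0.59, adjusted p = 0.0564), without a filter (-0.65, adjusted p = 0.105), with the block (-0.63, adjusted p = 0.101) and in 6 of 8 fits with a sample left out, and the causes were not tested. Same-numbered samples had correlations from -0.45 to 0.48 after group means were removed, and the main fits assumed no pairing. Between genotypes at E17.5, replicates 1 and 2 each correlated best with the same number (0.466 and 0.484). Replicates 3 and 4 did not (0.051 and 0.154), and no E11.5 replicate did (0.033 to 0.108). Pairing in part of the samples is therefore not excluded. With the replicate block, calls were 0 and 0 between genotypes, 0 for the interaction, 4883 higher and 4583 lower between stages in wild type, and 7133 and 7321 in humanized samples, and Rxrg at E11.5 turned to -0.052 between genotypes. Between genotypes, DESeq2 called 2 genes for E11.5 and 1 for E17.5, and the fit of all 16 samples 1 at E11.5. In the strand column, Rarb turned to 0.058 between genotypes at E17.5, and its level was 6.53 and 4.17 TPM in wild type and 5.69 and 4.40 TPM in humanized samples (E11.5, then E17.5). Small differences changed sign when a sample was left out: between genotypes Rxrg at E11.5 (-0.39 to 0.31), Aldh1a1 at E17.5 (-0.063 to 0.22) and Rarb at E17.5 (-0.19 to 0.19), and in the interaction Aldh1a1 (-0.83 to 1.77), Cyp26b1 (-0.42 to 0.26) and Rxrg (-0.65 to 0.042). For CTCF, 1 member had a peak in all 6 lists at -log10 q of at least 5 and 3 had one within 2500 bp, against 2. Without centring, the median promoter shifted by 0.18 for H3K4me3 and -0.36 for H3K27me3 between stages, Rxrg H3K27me3 turned to -0.14, H3K4me3 at Cyp26b1 was called (0.51, adjusted p = 0.0311), and H3K27me3 calls by genotype were 10 for E11.5 and 1 for E17.5, against 3 and 0. Between stages without centring, 2487 promoters were higher and 365 lower for H3K4me3, against 1360 and 642, and 564 and 1986 for H3K27me3, against 1205 and 1489. With a list left out, which leaves 1 list in a genotype at E11.5 and assumes it varies like the rest, calls by genotype at E11.5 were 4 to 14 for H3K27me3 and 0 to 1 for H3K4me3, and the stage difference of Crabp1 H3K4me3 was -0.030 to 0.31. The H3K27me3 and H3K4me3 calls of Rxrg between stages were lost in 8 and 3 of 10 such fits.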
